A study of Rattus norvegicus with 60 samples.

Results

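The genes described here are 10 targets of the transcription factor p53: Cdkn1a, Mdm2, Phlda3, Aen, Ccng1, Bax, Btg2, Gdf15, Tp53inp1 and Sesn2. They were picked by symbol, with earlier results of these data known. Each was read by its probe set with the highest mean over 60 arrays. Of the 10, 8 had a probe set that named them alone, among 14217 genes measured in this way. Bax was listed only on probe set 1369122_at, which also carries the symbol LOC681314, so its values are given by that ID and it is not counted among the 8. Btg2 is not analysed here because the probe table used does not list it.

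p53 is held low in unstressed cells by Mdm2, which marks it for breakdown. DNA damage and other stress, such as disturbed ribosome assembly, free it to switch on genes that stop the cell cycle, repair DNA, lower growth signalling or start cell death. Mdm2 is itself a target, which closes a negative feedback loop, and Cdkn1a is the target best known for halting the cell cycle in liver cells. Gdf15 and Sesn2 are also switched on by the integrated stress response, the ATF4-led answer to stress in protein synthesis, so they are not read by p53 alone.

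The study profiled hepatocytes (HC), the parenchymal cells of the liver, and mesenchymal cells (MC), a liver cell fraction whose cell types the labels do not name, from Wistar rats given carcinogens classed as nongenotoxic. Cyproterone acetate (CPA), a steroid with antiandrogen and progestin action, was given to female rats at 100 mg/kg by gavage, once (24 h) or on 6 consecutive days (6 d), against corn oil (CO, 10 ml/kg) at the same times. Phenobarbital (PB), a barbiturate that induces drug metabolism in liver, was given at 50 mg/kg to male rats, once by gavage (24 h) or in drinking water for 14 days (14 d), against water (H2O). Replicate 3 of the PB and H2O groups at 24 h is labelled female. All groups share the strain and carry no transgene, age is not given in the sources used here, and nothing in the labels says that the arrays of a group come from separate animals, so p-values measure the spread between arrays. In each fraction there were 5 arrays of CO at 24 h, 4 of the corn oil group labelled CO_Co (24 h, with no word on how it differs from CO), and 3 of each of the other 7 groups.

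Values are log2 intensities after RMA, and a change is the treated mean minus the vehicle mean of the same time, tested with limma and called at a Benjamini-Hochberg adjusted p under 0.05 over all 14217 genes. The median value of an array was 3.25 to 3.39 for HC arrays and 3.39 to 3.44 for MC arrays. The mean of 10 hepatocyte marker genes was 11.48 to 11.98 over the HC arrays and 7.04 to 10.76 over the MC arrays, so hepatocyte RNA was present in MC at uneven levels. In bulk RNA, fewer cells of a type and less RNA per cell cannot be told apart.

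The promoters are shown because 6 of the 8 genes moved together under CPA, as given further on. RefSeq promoter windows of 250 bases upstream of the table's start for each gene (build GRCr8) were found for 8 of the 10 genes; those of Bax and Tp53inp1 were not in the table used. The 10-base p53 consensus motif, searched on both strands, occurred in 3 of these genes, against 6.64% of 33469 windows of the same length. The p53 element as a whole holds 2 such motifs with 0 to 13 bases between them. As exact matches, that arrangement was in none of the members' windows and in 13 of all windows. No mismatch was allowed in either motif, so elements with a mismatched base, or outside these 250 bases, would not be counted. The 30 bases around each match are printed 5′ to 3′ on the gene's strand, with the motif in capitals.

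Cdkn1a (chr20:7150721-7150750, plus strand): tggctttcagGAACATGTCTtgacttgttc

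Aen (chr1:142224493-142224522, plus strand): agccgaagccGGGCATGTCCgggcaagcaa

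Ccng1 (chr10:25685089-25685118, minus strand): agacctgcccGGGCAAGCCTtggcattgaa

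The motif begins 201 bases before the start used by the promoter table in Cdkn1a, 232 bases before it in Ccng1 and 30 bases before it in Aen. That start is the 5′ end of the gene's RefSeq span for Ccng1, but lies 112 bases inside the span for Cdkn1a and 34 bases inside it for Aen. Counted from the 5′ end of the span, the motif begins 89 bases before it in Cdkn1a and 4 bases after it, inside the annotated gene, in Aen. A match describes these letters only, and no binding was measured.

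In hepatocytes 24 h after CPA, 6 of the 8 genes rose, against 22.5% of all genes that rose at the same threshold. The 6 were Cdkn1a, Mdm2, Phlda3, Aen, Ccng1 and Tp53inp1, and every CPA array lay above every CO array for each of them, as for 23.5% of all genes. Gdf15 and Sesn2 were not called. The median change of the 8 genes was 1.90, beside -0.01 for all genes.

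Cdkn1a encodes p21, an inhibitor of cyclin-dependent kinases that stops cell division. In HC its values were 8.11, 8.09 and 6.48 at 24 h of CPA and 5.13, 4.93, 5.03, 4.62 and 4.33 in CO. The lowest CPA array was thus more than 1 log2 unit above the highest control, although the CPA arrays differed widely among themselves. The change was 2.76 ± 0.34 (SE), or 6.75-fold, with an adjusted p of 4.47e-07. After 6 d the 3 CPA arrays read 8.94, 8.90 and 8.95 against 5.58, 4.83 and 4.66 in CO, a change of 3.90 ± 0.38 (15.0-fold, adjusted p = 1.71e-08). The 6 d arrays lay close together and above all 24 h arrays. The second probe set of Cdkn1a gave changes of 2.97 at 24 h and 4.94 at 6 d.

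Mdm2, the ubiquitin ligase that removes p53, had values of 9.24, 9.40 and 8.82 in HC at 24 h of CPA, and 6.47, 6.31, 7.00, 6.17 and 6.17 in CO. The groups were separate by nearly 2 log2 units, and the change was 2.73 ± 0.24 (6.63-fold, adjusted p = 3.30e-09). At 6 d the arrays read 9.16, 8.90 and 9.30 against 7.45, 6.10 and 6.07, a change of 2.58 ± 0.26 with an adjusted p of 4.34e-08. One CO array at 6 d stood above the other CO arrays, and still below every CPA array. All 3 probe sets of Mdm2 rose at both times, by 2.52 to 3.04 at 24 h and by 2.58 to 2.83 at 6 d.

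Ccng1 encodes cyclin G1, which binds the phosphatase PP2A and acts on Mdm2. Its values in HC were 8.19, 9.12 and 8.09 at 24 h of CPA against 6.43 to 6.76 in the 5 CO arrays, where the median was 6.72. This was a change of 1.81 ± 0.18 (3.51-fold, adjusted p = 2.07e-08). At 6 d the arrays read 8.50, 8.77 and 8.79 against 6.73, 6.82 and 6.78, a change of 1.91 ± 0.20 (adjusted p = 6.38e-08). The CO arrays of Ccng1 were tightly grouped, and the CPA arrays overlapped between the times.

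Phlda3 encodes a small pleckstrin-homology protein that restrains the survival kinase Akt. In HC it read 7.66, 8.58 and 6.83 at 24 h of CPA and 6.49, 5.46, 5.35, 5.59 and 4.94 in CO. The change was 2.12 ± 0.37 (4.36-fold, adjusted p = 5.06e-05), with a gap of under 1 log2 unit between the nearest arrays. At 6 d the values were 7.54, 8.03 and 7.57 against 5.59, 4.98 and 5.07, and the change was 2.50 ± 0.41 (adjusted p = 4.89e-05).

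Aen, a nuclease that takes part in DNA breakdown during apoptosis, read 6.74, 7.66 and 6.62 at 24 h of CPA and 5.52, 5.38, 5.02, 4.50 and 4.64 in CO. Its change was 2.00 ± 0.23 (3.99-fold, adjusted p = 2.09e-07). At 6 d the arrays were at 5.93, 6.25 and 5.81 against 4.99, 4.98 and 4.69, a change of 1.11 ± 0.26 (adjusted p = 0.00194). All 6 d arrays of Aen lay below all 24 h arrays of CPA. Its second probe set also rose at both times, by 1.12 and 0.76.

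Tp53inp1, a nuclear protein that promotes p53-dependent cell death and autophagy, had low values, in CO near the HC array median of 3.25 to 3.39. Its values in HC were 4.54, 5.23 and 4.82 at 24 h of CPA against 2.95, 3.16, 3.05, 3.23 and 3.73 in CO, a change of 1.64 ± 0.23 (adjusted p = 3.42e-06). At 6 d they were 4.97, 4.79 and 4.58 against 4.11, 3.70 and 3.76, a change of 0.92 ± 0.26 (adjusted p = 0.00901). The CPA arrays of the 2 times overlapped, while the CO arrays at 6 d lay near or above the highest CO array at 24 h.

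At 6 d of CPA in hepatocytes the same 6 genes were called, against 15.0% of all genes that rose, with all CPA arrays above all CO arrays for each, as for 23.7% of all genes. The median change of the 8 genes was 1.51, beside -0.01 for all genes. Leaving out any single array, weighting arrays or centring them lost none of these 6 calls at either time. The mean of 7 Kupffer cell and macrophage markers in HC was 6.42 ± 0.13 (SD, n = 3) at 6 d of CPA and 5.23 ± 0.12 (SD, n = 3) in CO, and at 24 h it was 4.48 ± 0.75 (SD, n = 3) and 4.84 ± 0.93 (SD, n = 5). Of these 7 markers, Adgre1 and Cybb were called higher and Lyz2 lower at 6 d. In 6 of the 7, all but Lyz2, every CPA array at 6 d lay above every CO array, as for 23.7% of all genes. The part of such cells in the 6 d changes was not tested. The hepatocyte marker mean was 11.53 ± 0.06 (SD, n = 3) at 6 d of CPA and 11.83 ± 0.04 (SD, n = 3) in CO.

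**Figure D1:**
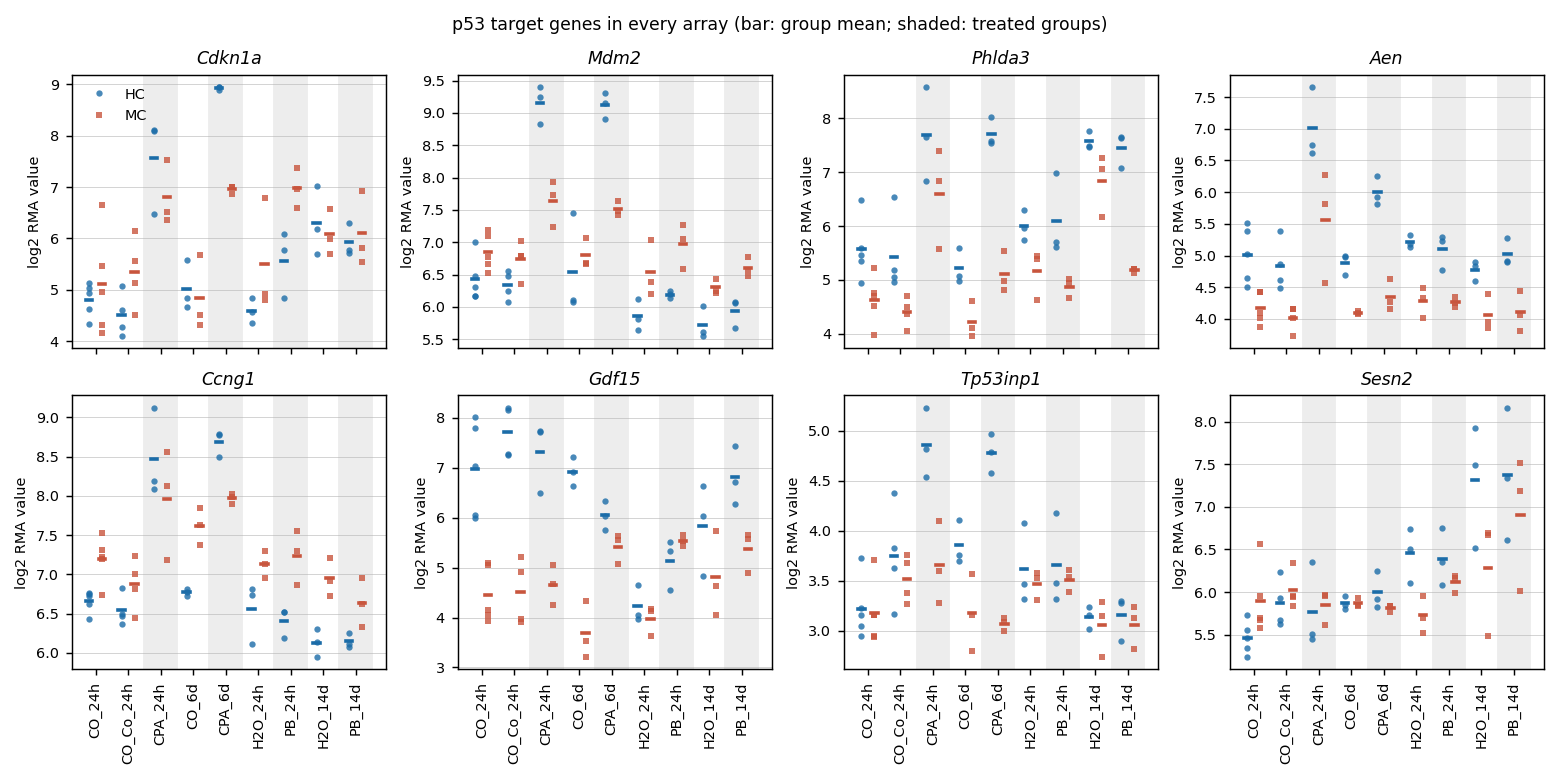
Log2 RMA value (vertical axis) of each of the 8 measured p53 target genes in every array, by group (horizontal axis), with HC as circles, MC as squares, the group mean as a bar and treated groups shaded. In HC the CPA arrays of Cdkn1a, Mdm2, Phlda3, Aen, Ccng1 and Tp53inp1 lie above the corn oil arrays of the same time, while those of Gdf15 at 6 d (5.76 to 6.34) lie below theirs (6.63 to 7.22).

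Gdf15, a secreted stress cytokine that acts on appetite, was not called in HC under CPA. At 24 h it read 7.71, 7.73 and 6.49 in HC, inside the CO range of 6.00 to 8.01, and the change was 0.33 ± 0.43 (adjusted p = 0.597). At 6 d its CPA arrays, at 6.04, 6.34 and 5.76, all lay below the CO arrays at 7.22, 6.91 and 6.63, as for 18.8% of all genes. That difference, -0.87 ± 0.48, was not called (adjusted p = 0.208).

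The vehicle level of Gdf15 in HC also varied more than that of the other members. It ranged from 3.98 to 8.20 over the 18 vehicle arrays, with means of 4.23 ± 0.37 (SD, n = 3) in H2O at 24 h, 5.83 ± 0.91 (SD, n = 3) in H2O at 14 d and 6.98 ± 0.94 (SD, n = 5) in CO at 24 h. Every CO array at 24 h was above every H2O array at 24 h. Vehicle and labelled sex differ together here except in H2O replicate 3, labelled female, which read 4.65 against 6.00 to 8.01 in CO. With a single such array vehicle and sex cannot be separated, and the difference was not tested.

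Sesn2, a stress protein that lowers mTORC1 signalling, read 5.51, 6.35 and 5.45 in HC at 24 h of CPA against 5.24 to 5.73 in CO, with a change of 0.30 ± 0.28 (adjusted p = 0.446). At 6 d the change was 0.13 ± 0.32 (adjusted p = 0.816), and the groups overlapped at both times. Its HC means were highest in the 14 d groups, with arrays at 7.93, 7.49 and 6.52 in H2O and at 8.16, 7.34 and 6.61 in PB, which overlapped with each other and with the 24 h arrays of H2O and PB (up to 6.74 and 6.75).

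Bax encodes a protein that opens the mitochondrial membrane in apoptosis. Probe set 1369122_at, which lists Bax beside another symbol, read 6.51, 6.78 and 6.39 in HC at 24 h of CPA, against 4.40 to 5.97 in CO. Over all 31042 probe sets its change was 1.17 ± 0.34 (adjusted p = 0.0122), and at 6 d it was 1.16 ± 0.38 (adjusted p = 0.0357). In MC its changes of 0.75 at 24 h and 0.41 at 6 d were not called. Which of its listed genes gave the signal cannot be told apart.

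In mesenchymal cells fewer of the genes passed the test, and the changes were mostly smaller. At 24 h of CPA, 3 of the 8 rose (Phlda3, Aen and Mdm2), against 2.23% of all genes, and the median change of the 8 was 0.77 beside -0.01 for all genes. For these 3 genes all CPA arrays were above all CO arrays, as for 3.47% of all genes. The hepatocyte marker mean in MC was 9.81 ± 0.87 (SD, n = 3) in CPA and 9.24 ± 1.40 (SD, n = 5) in CO. With it as a covariate the changes of Phlda3, Aen and Mdm2 were 1.84, 1.30 and 0.74, all called. That covariate has the same slope in all MC groups, so it cannot take out hepatocyte RNA whose content CPA itself changed. The part of hepatocyte RNA in these MC changes was not tested.

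Phlda3 in MC read 5.57, 7.39 and 6.84 at 24 h of CPA and 4.76, 4.70, 4.52, 5.22 and 3.98 in CO, a change of 1.97 ± 0.32 (3.91-fold, adjusted p = 0.00125). Aen read 4.57, 6.27 and 5.82 against 3.87 to 4.42, a change of 1.39 ± 0.24 (adjusted p = 0.00218). Mdm2 read 7.23, 7.73 and 7.93 against 6.52 to 7.19, a change of 0.78 ± 0.20 (adjusted p = 0.0317). In each of these genes CPA replicate 1 was the lowest of the 3 treated arrays and came within 0.4 log2 units of the highest control. Its hepatocyte marker mean was also the lowest, at 8.91 beside 9.87 and 10.63 in CPA replicates 2 and 3. Mdm2 followed that order over the 3 arrays, while Phlda3 and Aen were highest in replicate 2. A link between these levels was not tested. The call of Mdm2 was lost without CPA replicate 2 (adjusted p = 0.206), CPA replicate 3 (0.306), CO replicate 1 (0.0578) or CO replicate 2 (0.0701), and with arrays centred on their median (0.0646). The call of Aen was lost without CPA replicate 2 (1.03, adjusted p = 0.0543).

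Cdkn1a in MC read 6.36, 7.52 and 6.52 at 24 h of CPA, against CO arrays spread from 4.15 to 6.65. The groups overlapped through 1 CO array, and the change of 1.69 ± 0.51 was not called (adjusted p = 0.0765). Without that array, CO replicate 5, the change was 2.07 with an adjusted p of 0.0234, and the second probe set of Cdkn1a was called, at 1.69 ± 0.37 (adjusted p = 0.0215 over all probe sets). Ccng1 in MC read 7.19, 8.12 and 8.56 against 6.74 to 7.53, a change of 0.76 ± 0.24 that was not called (adjusted p = 0.0922). Without CPA replicate 1 its change was 1.14 (adjusted p = 0.00238).

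At 6 d of CPA in MC, 2 of the 8 genes rose (Cdkn1a and Gdf15), against 2.04% of all genes, with a median change of 0.53 beside 0.01 for all genes. Cdkn1a read 6.86, 7.01 and 7.00 against 5.67, 4.32 and 4.51, a change of 2.12 ± 0.57 (4.35-fold, adjusted p = 0.0476). Gdf15 read 5.63, 5.56 and 5.07 against 4.33, 3.53 and 3.21, a change of 1.73 ± 0.41 (3.32-fold, adjusted p = 0.0159). The groups did not overlap for either gene. In 6 of the 8 genes all CPA arrays were above all CO arrays, as for 13.3% of all genes, among them Phlda3 (0.89 ± 0.36, adjusted p = 0.334) and Mdm2 (0.72 ± 0.22, adjusted p = 0.116).

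The calls of Cdkn1a and Gdf15 at 6 d in MC rest on few arrays. Cdkn1a was lost without CO replicate 2 or 3 or without any one of the CPA arrays, with adjusted p from 0.113 to 0.237. It was also lost with arrays centred on their median (0.0660) and when all probe sets were tested (0.0743). Its second probe set gave 2.35 ± 0.41 (adjusted p = 0.00129). Gdf15 was lost without CO replicate 2 (0.0798) or 3 (0.134), or CPA replicate 1 (0.0819) or 2 (0.0695).

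**Figure D2:**
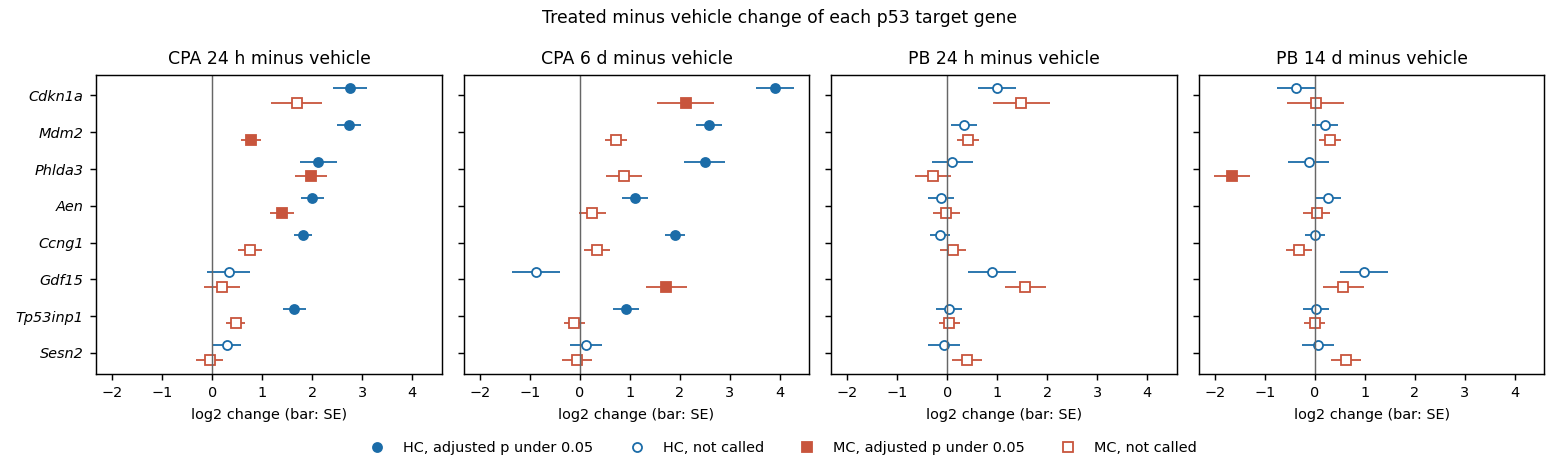
Log2 change against the time-matched vehicle (horizontal axis, bar: SE) of the 8 genes (rows) under each treatment (panels), with HC as circles, MC as squares and filled symbols for an adjusted p under 0.05. Filled symbols number 6 in HC at each CPA time, 3 and 2 in MC under CPA, none under PB at 24 h, and 1 under PB at 14 d, Phlda3 in MC at -1.65.

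The size of the CPA response was called different between the fractions for some genes only. At 24 h the change was larger in HC than in MC for Mdm2, Ccng1 and Tp53inp1, 3 of 8, against 6.20% of all genes. The difference between the changes was 1.95 ± 0.32 for Mdm2 (adjusted p = 4.38e-05), 1.06 ± 0.30 for Ccng1 (0.0187) and 1.16 ± 0.31 for Tp53inp1 (0.0106). For Phlda3 it was 0.15 ± 0.51 and not called, so the test did not separate the fractions there. The calls of Ccng1 and Tp53inp1 were lost without HC CPA replicate 2 (0.73, adjusted p = 0.189, and 0.98, 0.0737) or MC CPA replicate 1 (0.67, 0.164, and 0.97, 0.0606), while the call of Mdm2 held in each of the 16 fits that left out 1 array.

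At 6 d the change was larger in HC for Mdm2 (1.86 ± 0.35, adjusted p = 4.57e-04) and Ccng1 (1.56 ± 0.34, 0.00238), 2 of 8 against 3.13% of all genes. Gdf15 went the other way, with a difference of -2.61 ± 0.66 (adjusted p = 0.0106), where 1.45% of all genes were called lower. Its CPA arrays were below CO in HC and above CO in MC, with no overlap in either fraction. Both other probe sets of Mdm2 were also called in this contrast, at 1.81 and 2.00.

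Between the times, none of the 8 genes was called by limma for a change that differed between 6 d and 24 h of CPA, in HC (14.5% of all genes called) or in MC (0.506%). At an unadjusted p under 0.05 there were 2 of the 8 in HC (and 3731 of all 14217 genes) and 3 in MC (and 907). In HC the largest differences were -1.21 ± 0.65 for Gdf15, 1.15 ± 0.50 for Cdkn1a (adjusted p = 0.139) and -0.89 ± 0.35 for Aen (0.0912). In MC they were 1.53 ± 0.54 for Gdf15 (0.405), -1.13 ± 0.36 for Aen (0.280) and -1.08 ± 0.48 for Phlda3 (0.682). Without HC CO replicate 1 at 24 h Aen was called in HC (-1.01, adjusted p = 0.0476), and without MC CPA replicate 1 at 24 h it was called in MC (-1.63, 0.00257).

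**Figure D3:**
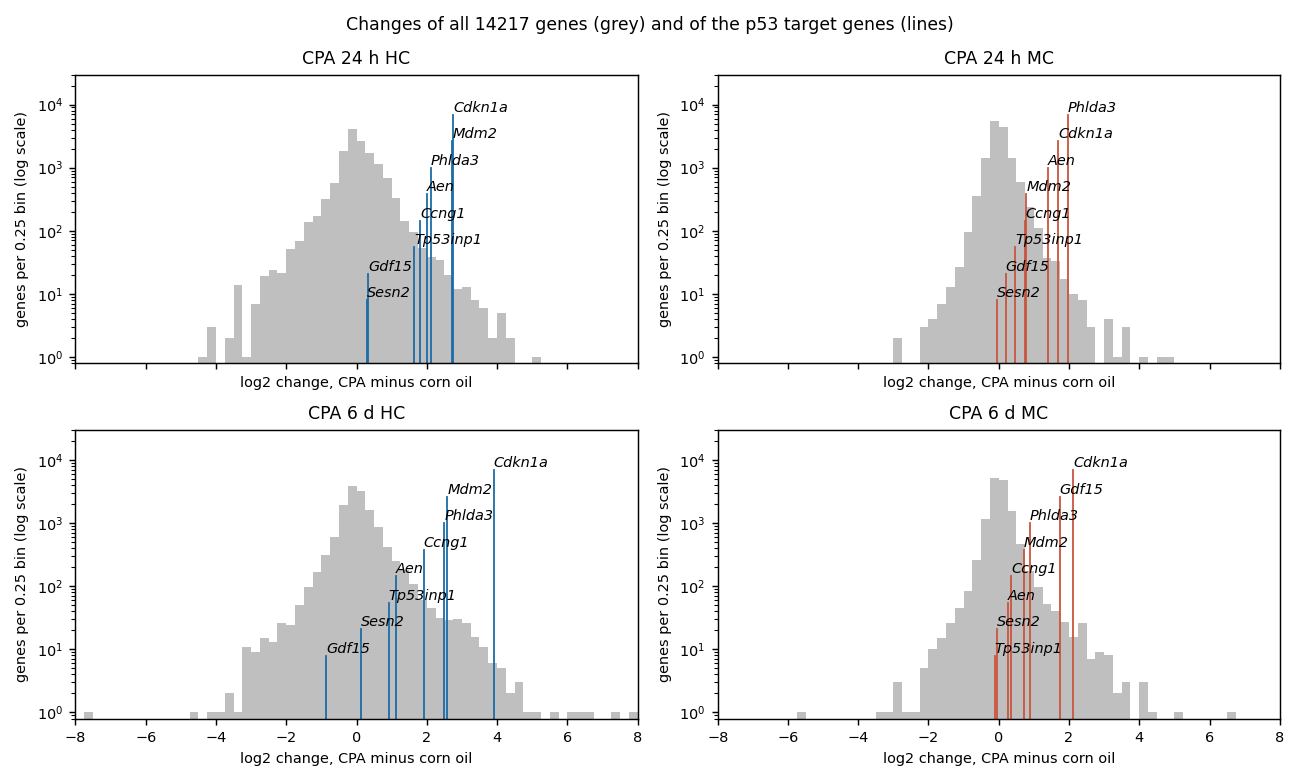
Log2 change under CPA (horizontal axis) of all 14217 genes (grey bars, number of genes per bin of 0.25 on a log scale) and of the 8 p53 target genes (lines at their change; line heights only separate the labels) in each fraction and time. In HC at 24 h, Cdkn1a and Mdm2 rank 49 and 52 of 14217 by rise and 95% of genes lie below 1.03.

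Under PB none of the 8 genes was called in HC, at 24 h (0.0774% of all genes called) or at 14 d (0.0633%). At an unadjusted p under 0.05 limma gave 1 of the 8 (and 986 of all genes) at 24 h and 0 (and 1576) at 14 d. That 1 gene was Cdkn1a, at 5.77, 6.09 and 4.83 in PB and 4.83, 4.35 and 4.56 in H2O, a change of 0.99 ± 0.38 (adjusted p = 0.556). The lowest PB array matched the highest H2O array to the second decimal, and both were replicate 3, which is labelled female. Gdf15 read 5.51, 5.33 and 4.56 against 4.65, 3.98 and 4.05 at 24 h, and 6.28, 6.72 and 7.44 against 6.03, 4.84 and 6.63 at 14 d, with changes of 0.90 ± 0.48 and 0.99 ± 0.48 that were not called. For Gdf15 at 24 h the replicate 3 arrays read 4.56 in PB and 4.65 in H2O. Whether these changes differ by labelled sex was not tested. By rise, Cdkn1a ranked 33 and Gdf15 38 of 14217 genes at 24 h.

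In MC at 24 h of PB no gene of the 14217 was called (0%), with 2 of the 8 and 446 of all genes at an unadjusted p under 0.05. The 2 were Gdf15, at 5.66, 5.53 and 5.43 against 4.18, 4.13 and 3.62 (1.56 ± 0.41, adjusted p = 0.835), and Cdkn1a, at 6.59, 7.38 and 6.96 against 6.78, 4.91 and 4.80 (1.48 ± 0.57, adjusted p = 0.999). The PB arrays of Gdf15 all lay above H2O, as for 6.84% of all genes. Those of Cdkn1a overlapped through 1 H2O array, replicate 3 at 6.78, which is labelled female. With arrays weighted by their quality, limma called Gdf15 (1.63, adjusted p = 0.00125), Cdkn1a (2.07, 0.00251) and Mdm2 (0.67, 0.0155). By rise, Gdf15 and Cdkn1a ranked 17 and 19 of 14217 genes.

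At 14 d of PB in MC, 1 of the 8 genes fell, Phlda3, against 9.02% of all genes. It read 5.20, 5.21 and 5.12 in PB and 7.05, 7.27 and 6.16 in H2O, a fold of 3.13 (-1.65 ± 0.36, adjusted p = 0.00660). All PB arrays were below all H2O arrays, as for 17.0% of all genes. Phlda3 was high in the H2O arrays at 14 d in both fractions, at 7.57 ± 0.17 (SD, n = 3) in HC and 6.83 ± 0.59 (SD, n = 3) in MC, compared with 6.00 ± 0.27 (SD, n = 3) and 5.16 ± 0.46 (SD, n = 3) in H2O at 24 h. The PB arrays at 14 d in MC were thus near the level of H2O at 24 h.

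The hepatocyte marker mean moved with Phlda3 in these MC arrays. It was 10.55, 10.52 and 10.43 in H2O at 14 d and 8.59, 9.54 and 8.19 in PB. Of the 10 markers 4 (Ahsg, Asgr1, Rbp4 and Hpd) were called lower, where 9.02% of all genes were. The change was negative in all 10, with a median of -2.02 beside 0.02 for all genes. With that mean as a covariate the change of Phlda3 was -1.25 ± 0.38 and no longer called (adjusted p = 0.107). Pairing by replicate number at 14 d was inferred from how these arrays deviated together, as given under processing. With the numbers as a block, Phlda3 stayed called and Sesn2 was called too, at 0.62 ± 0.16 (adjusted p = 0.0104, without the block 0.147). The difference of the Phlda3 change between HC and MC was 1.53 with an adjusted p of 0.0722, and 0.0372 with the block, where 10.1% of all genes were called without it.

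CPA and PB were compared directly at 24 h, where the compounds also differ in sex and vehicle and these cannot be told apart. In HC the change was larger under CPA for the same 6 genes, against 14.2% of all genes. The difference was 2.40 ± 0.35 for Mdm2 (adjusted p = 3.93e-05), 2.12 ± 0.35 for Aen (1.20e-04), 2.02 ± 0.56 for Phlda3 (0.0101), 1.96 ± 0.27 for Ccng1 (1.82e-05), 1.77 ± 0.50 for Cdkn1a (0.0131) and 1.60 ± 0.35 for Tp53inp1 (0.00161). Cdkn1a was lost without HC CPA replicate 2 (0.0570) or HC PB replicate 3 (0.0577), and Phlda3 without HC CPA replicate 2 (0.0540). In MC none of the 8 was called by limma (0.113% of all genes called), with 3 of the 8 and 1444 of all genes at an unadjusted p under 0.05. The nearest was Phlda3, at 2.25 ± 0.48 (adjusted p = 0.0726), which was called without CO replicate 4 (2.40, 0.0322), CPA replicate 1 (2.77, 0.00124) or H2O replicate 3 (2.52, 0.0267). Without CPA replicate 1, Aen was called too (1.90, 6.22e-04). No difference between HC and MC in the change under PB at 24 h was called for the 8 genes by limma (0% of all genes called, and none of the 8 but 614 of all genes at an unadjusted p under 0.05).

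In the vehicle arrays at 24 h, 5 of the 8 genes differed between HC and MC in CO (70.2% of all genes) and 4 in H2O (57.1%). Aen was higher in HC by 0.85 ± 0.21 in CO (adjusted p = 4.82e-04) and by 0.94 ± 0.27 in H2O (0.00320), with no overlap in either. Phlda3 was higher in HC by 0.93 ± 0.31 in CO (0.00729), where the arrays overlapped. In H2O its difference of 0.84 ± 0.40 was not called (0.0683), although every HC array was above every MC array, and it was called with array weights (0.70, 0.0356) or centred arrays (1.20, 0.00577). Gdf15 was higher in HC in CO, by 2.52 ± 0.36 (3.80e-08), and its difference of 0.25 ± 0.46 in H2O was not called. Sesn2 was called higher in HC in H2O (0.73, adjusted p = 0.0492), a call lost without HC replicate 1 or 2 or MC replicate 1 or 2 (0.0957 to 0.172), with all probe sets tested (0.0565) or with a term for labelled sex (0.0528). Mdm2 and Ccng1 were lower in HC, with differences of -0.42 and -0.54 in CO and -0.68 and -0.57 in H2O. The calls of Mdm2 and Ccng1 were lost when arrays were centred on their median, which moved the median difference of all genes from 0.13 to 0.53 in CO and from 0.15 to 0.51 in H2O. The Mdm2 call in CO also ended without HC replicate 1, 2, 4 or 5 or MC replicate 1, 3 or 5 (adjusted p 0.0572 to 0.140), with array weights (0.0536), with probe sets averaged per gene (0.0637) or with all probe sets tested (0.0544). In H2O the Mdm2 call ended without HC replicate 2 (0.0837) or MC replicate 3 (0.179), and that of Ccng1 without HC replicate 3 (0.255) or MC replicate 1 (0.127) or 2 (0.0716). Without MC replicate 2, Cdkn1a was called lower in HC in H2O (-1.27, 0.0481; with it -0.92, 0.108).

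The 2 corn oil groups at 24 h served as a measure of how far control groups differ. Between CO_Co and CO, limma called none of the 8 genes in HC (0.0703% of all genes) or MC (0%), with 1 and 0 of the 8 (and 548 and 384 of all genes) at an unadjusted p under 0.05. That 1 gene was Tp53inp1 in HC, with means of 3.75 in CO_Co and 3.22 in CO, a difference of 0.53 ± 0.21 (limma, unadjusted p = 0.0203). The largest difference was 0.74 ± 0.40, for Gdf15 in HC (unadjusted p = 0.0726). With both groups as the control, 5 of the 8 were called in MC at 24 h of CPA, with Cdkn1a at 1.59 (adjusted p = 0.0384) and Ccng1 at 0.90 (0.0145) in addition.

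Other known p53 targets, a list of 35 genes of which 28 were measured, moved in both directions. In HC at 24 h of CPA 9 rose and 4 fell, where 22.5% of all genes rose and 11.7% fell, with a median change of 0.26 beside -0.01 for all genes. Among those that rose, Pidd1, which assembles a caspase-2 complex after DNA damage, changed by 1.65 ± 0.21 (adjusted p = 9.38e-07). Gadd45a, a DNA damage and growth arrest protein, rose by 1.15 ± 0.40 (0.0283), and Epha2, a receptor tyrosine kinase, by 1.04 ± 0.36 (0.0252). Ppm1d, a phosphatase that turns p53 signalling off, rose by 0.99 ± 0.17 (3.02e-05).

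At 6 d of CPA in HC, 8 of the 28 rose and 6 fell, where 15.0% of all genes rose and 9.29% fell, with a median of 0.06. Dram1, a lysosomal protein that links p53 to autophagy, rose by 2.63 ± 0.33 (adjusted p = 1.23e-06), from 3.16 to 5.79 in the group means. Fas, a death receptor, rose by 1.18 ± 0.32 (0.00648) and Apaf1, the core of the apoptosome, by 1.07 ± 0.21 (3.33e-04). Sesn1, a relative of Sesn2, fell at both times, by 0.87 at 24 h (adjusted p = 0.00560) and by 1.35 at 6 d (4.08e-04). Neither sestrin was called higher in HC under CPA. In MC limma called none of the 28 under CPA at either time, with 4 and 3 (and 1933 and 1374 of all genes) at an unadjusted p under 0.05, and none in either fraction at 24 h of PB or in HC at 14 d, with 3, 1 and 4 (and 986, 446 and 1576 of all genes) at that threshold. At 14 d of PB in MC 3 rose and 3 fell, where 9.36% of all genes rose and 9.02% fell, with the largest changes in Dcxr (-2.07), Epha2 (1.21), Rps27l (-0.96) and Apaf1 (0.86).

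**Figure D4:**
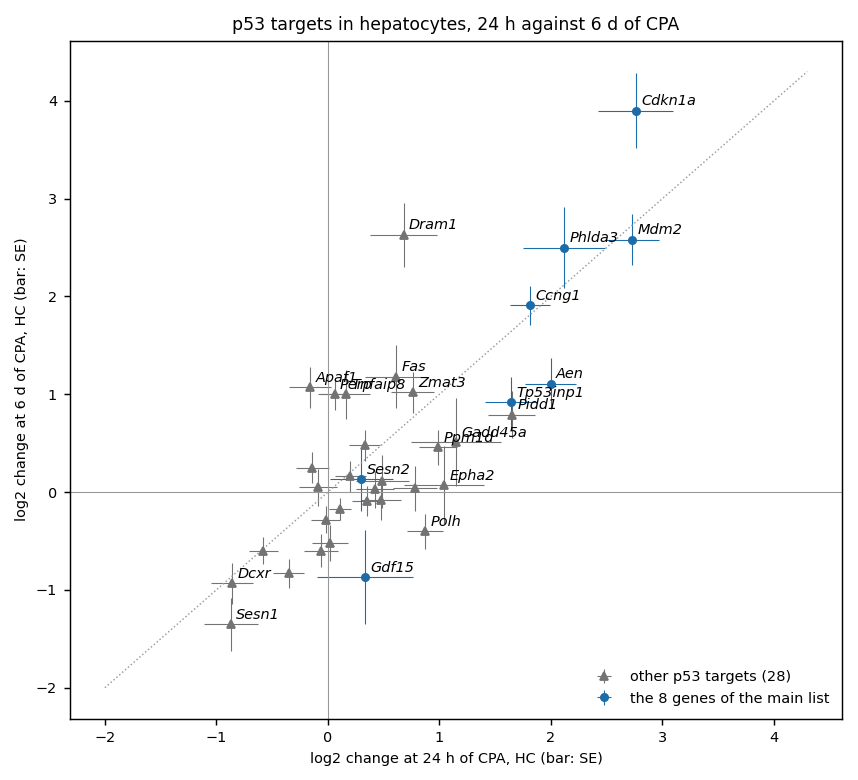
Log2 change in HC at 24 h of CPA (horizontal axis) and at 6 d (vertical axis), each with its SE, for the 8 p53 target genes (circles) and the 28 other p53 targets measured (triangles), with a dotted line at equal change. Cdkn1a (2.76 and 3.90), Mdm2 (2.73 and 2.58), Phlda3 (2.12 and 2.50) and Ccng1 (1.81 and 1.91) lie at the upper right, and Dram1 (0.68 and 2.63) lies far above the line.

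Genes that act on p53 itself were measured for 15 of 18 listed. In HC at 24 h of CPA 5 rose and 1 fell, where 22.5% of all genes rose and 11.7% fell. Prkdc, the catalytic subunit of the DNA-dependent protein kinase, fell by 1.48 (SE 0.22, adjusted p = 6.76e-06), and the checkpoint kinases Chek1 and Chek2 rose by 0.93 ± 0.26 (0.00578) and 0.60 ± 0.19 (0.0170). Rpl11, a ribosomal protein that can bind Mdm2, rose by 0.61 ± 0.19 (0.0153). At 6 d 3 of the 15 rose, where 15.0% of all genes did, Atr by 0.93 ± 0.20 (0.00109), Rpl11 by 0.80 ± 0.22 (0.00652) and Rpl5 by 0.54 ± 0.13 (0.00187). In MC, Chek1 rose at 24 h (1.05, adjusted p = 0.0278) and Chek2 at 6 d (0.98, 9.28e-04), 1 of 15 each, where 2.23% and 2.04% of all genes rose.

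Of 14 genes of the integrated stress response, all measured, 2 rose and 1 fell in HC at 24 h of CPA, and 5 rose and 4 fell at 6 d. Of all genes 22.5% rose and 11.7% fell at 24 h, and 15.0% and 9.29% at 6 d, so the share of the list that rose was below that of all genes at 24 h and above it at 6 d. Asns, which makes asparagine, rose by 0.78 ± 0.27 (adjusted p = 0.0266) and 2.06 ± 0.31 (1.20e-05), and Trib3, a pseudokinase, by 1.23 ± 0.29 (0.00148) and 1.20 ± 0.33 (0.00738). Nupr1, a stress-induced chromatin protein, fell by 1.30 and then by 3.18 (0.00477 and 8.72e-07). At 6 d Chac1, which breaks down glutathione, fell by 1.31 (0.0259). Gdf15 and Sesn2, which this pathway also controls, were not called in HC at either time, and the list itself moved in both directions. In MC none was called at 24 h of CPA (4 of 14 and 1933 of all genes at an unadjusted p under 0.05), and Phgdh, which starts serine synthesis, rose at 6 d (adjusted p = 9.74e-05), 1 of 14 where 2.04% of all genes rose.

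Immediate early genes, which respond within minutes to handling and growth signals, were read because they can mark stress during cell isolation. In HC 2 of 12 rose and 2 fell at 24 h of CPA, and 1 rose and 6 fell at 6 d, with Dusp1 at -2.53, Jun at -1.66, Egr1 at -1.49 and Klf6 at 1.37. Of all genes 22.5% rose and 11.7% fell at 24 h, and 15.0% and 9.29% at 6 d. At 14 d of PB in MC 7 of 12 rose, where 9.36% of all genes did, Egr1 by 1.81, Klf6 by 1.32, Ier2 by 1.27 and Nr4a1 by 1.24, in the same comparison in which Phlda3 fell. Their part in the result for Phlda3 was not tested.

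Cell division genes that p53 is known to lower through Cdkn1a and the DREAM repressor complex were measured for 12 of 14 listed. In HC all 12 rose at 24 h of CPA, by 0.76 to 4.23 with a median of 2.28, and all 12 rose at 6 d, by 0.82 to 4.23 with a median of 2.32, where 22.5% and 15.0% of all genes rose. Every CPA array was above every CO array for each of them at both times, as for 23.5% of all genes at 24 h and 23.7% at 6 d. At 24 h the largest were Ccna2, a cyclin, at 4.23 ± 0.48 (adjusted p = 1.37e-07), Cdk1, the mitotic kinase, at 3.61 ± 0.49 (1.96e-06), Mki67, a proliferation marker, at 3.40 ± 0.46 (1.77e-06), and Aurka, a spindle kinase, at 2.42 ± 0.29 (4.28e-07). Cdkn1a and these genes were thus higher in the same arrays, while the list holds genes that p53 is known to lower. In MC 5 of the 12 rose at 24 h and all 12 at 6 d (2.23% and 2.04% of all genes), with a median of 2.09 at 6 d, and Cdk1 and Ccnb2 were at 3.46 ± 0.42 and 3.14 ± 0.32. Under PB at 24 h none of the 12 was called in either fraction and none at an unadjusted p under 0.05, and at 14 d none was called, with 1 in HC and 2 in MC at that threshold (and 1576 and 5017 of all genes).

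Across the 30 HC arrays, the genes outside the list most like the mean of the 8 genes, each scaled over those arrays, were Eif3d, Tpm3, Slc3a2, Lmna and Nhp2, each with Pearson r = 0.94. The arrays share treatments, so this describes a common pattern only. In the same order, their changes at 24 h of CPA were 0.94, 1.20, 1.75, 1.28 and 1.44. Eif3d is a subunit of a translation initiation factor, Slc3a2 a chain of amino acid transporters, Lmna the nuclear lamin A gene, Tpm3 a tropomyosin and Nhp2 a part of small nucleolar ribonucleoproteins.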

How the data were processed

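The authors deposited log2 intensities made with RMA (version not given, per the submitters' processing notes) from 250 ng of total RNA per array. RMA corrects background, scales arrays to each other by quantiles and sums the probes of a probe set, so shifts shared by all genes are removed. No further scaling was applied. Of 31042 probe sets, 20826 had 1 symbol in the probe table, 436 several and 9780 none, and 20758 (99.7%) of the first matched the RefSeq gene table (GRCr8) by Entrez ID. The probe set with the highest mean over 60 arrays stood for each of 14217 genes.

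Groups came from the sample labels. limma 3.58.1 in R 4.3.3 (lmFit, eBayes) fitted 1 mean per group over the 30 arrays of a fraction, or over all 60 for HC against MC, with no term for sex; p-values were adjusted by Benjamini-Hochberg over all genes. The number of arrays limits the precision. The fit was tested on simulated data. The genes and lists were chosen with earlier results of these data known. All 10 genes are described; from each other list up to 4 called genes with the largest change per comparison are named. Same-numbered treated and vehicle arrays deviated together in every pair (r over 0.1) only at 14 d of PB, in both fractions (0.20 to 0.64), which is where the pairing comes from; same-numbered HC and MC arrays did so in CO at 24 h, PB at 24 h and both 14 d groups.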

Additional observations from a re-analysis of the deposited data

Results flagged for a closer look

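Among 32 sets of 4 or 5 arrays checked for a value far from the rest, 1 stood apart: Phlda3 in HC of the CO_Co group, where the highest array read 6.53 and the next 5.18. About 1 such set in 20 is to be met without cause.

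The change at 24 h in HC differed between CPA and PB by 1.77 for Cdkn1a, 2.40 for Mdm2, 2.02 for Phlda3, 2.12 for Aen, 1.96 for Ccng1 and 1.60 for Tp53inp1 (limma, adjusted p from 1.82e-05 to 0.0131). The change under CPA differed between HC and MC at 24 h by 1.95 for Mdm2, 1.06 for Ccng1 and 1.16 for Tp53inp1, and at 6 d by 1.86 for Mdm2, 1.56 for Ccng1 and -2.61 for Gdf15. CPA and corn oil animals are labelled female and most PB and water animals male, so compound and sex cannot be told apart in the first set.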

How the results depend on the processing

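The number of the 8 genes called in HC under CPA was 6 at both times under all alternatives run except the filter on low values, under which Tp53inp1 was not tested. Of 652 alternative values of 39 called changes, 602 kept their call, 50 lost it and 0 turned in direction. With array weights the count was 3 for PB 24 h MC, 2 for PB 14 d MC, 6 for CPA 24 h MC, 4 for CPA 6 d MC, 1 and 4 for the difference between CPA times in HC and MC, 3 for CPA against PB in MC and 7 for HC against MC at 6 d of CPA. With the replicate block it was 2 for PB 14 d MC, 5 for CPA 24 h MC and 1 for CPA against PB in MC. For HC against MC the block gave 1 at 14 d of PB and 5 at 6 d of CPA. Of these comparisons, pairing by number was inferred only in those at 14 d of PB, and in the others the arrays share only a number. With the block Phlda3 was also called higher in HC than in MC in H2O at 24 h (adjusted p = 0.0431). The block changed no other count by over 1.5 times, and was not run for CO_Co against CO, which is no treated and vehicle pair. PB 14 d MC gave 0 with the hepatocyte marker covariate, CPA 24 h MC gave 5 with both corn oil groups as control, and CPA 6 d MC gave 1 with centred arrays and 1 with all probe sets. The cause of these shifts was not tested. Leaving out 1 array gave 1 to 2 for PB 14 d MC, 1 to 4 for CPA 24 h MC, 0 to 2 for CPA 6 d MC, 0 to 1 for the difference between CPA times in HC and in MC, 4 to 6 and 0 to 2 for CPA against PB in HC and MC, 0 to 1, 1 to 3 and 3 to 4 for HC against MC at 14 d of PB, 24 h and 6 d of CPA, and 4 to 5 and 2 to 3 for the levels in CO and H2O.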

Other observations

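Probe set 1369122_at, which lists Bax beside another symbol, read 4.79 in HC and 5.28 in MC in replicate 3 of H2O at 24 h, and 4.94 and 4.95 in replicate 3 of PB at 24 h. The other replicates of these groups read 6.06 to 6.15 in HC and 7.12 to 7.37 in MC. Replicate 3 is the one labelled female, and the 18 corn oil arrays of rats labelled female spanned 4.40 to 6.34 over both fractions for CO and CO_Co at 24 h.

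Epcam, a marker of bile duct cells, rose in HC under CPA by 2.09 ± 0.19 at 24 h (limma, adjusted p = 5.97e-09) and by 1.83 ± 0.21 at 6 d (2.70e-07). In MC its change was 1.46 at 24 h (0.0636, not called) and 1.77 at 6 d (0.0451). Its vehicle mean was 5.97 in HC and 2.15 in MC. None of the other 3 measured bile duct markers was called in HC under CPA. Krt19, Krt7 and Cftr had HC vehicle means of 2.28, 1.98 and 1.79, below the median of every HC array, so a missing call says little. Lrat, a vitamin A enzyme of stellate cells, fell in MC under CPA by 1.64 at 24 h (0.00784) and by 1.62 at 6 d (0.0132). No other of the 6 stellate cell markers was called there. At an unadjusted p under 0.05 limma gave 1 of the 6 at 24 h and 2 at 6 d (and 1933 and 1374 of all genes).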
